A study of Mus musculus with 4 samples.

Results

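The comparison described here set untreated bone marrow-derived macrophages of a library titled KO against those of a library titled WT, with 1 RNA sequencing library for each. Marrow of C57BL/6 mice aged 6 to 8 weeks had been grown for 6 days in medium holding 20% of L929 cell supernatant, a source of the macrophage growth factor CSF1, and 10% serum. By the series' design text, WT stands for mice with floxed Fbxw7 alleles and KO for mice that also carry LysM-cre, so the floxed allele is common to all groups. LysM-cre places the Cre recombinase in the Lyz2 locus, so that it is made in macrophages, neutrophils and other myeloid cells, and Cre cuts out the floxed stretch. A further WT-titled and KO-titled library came from cells given LPS, a bacterial cell wall component, for 3 h at a dose that no source used here states. The members were the genes with a mean of at least 1 CPM, a count scaled to the size of its library, over the 4 libraries, 12326 of 54532 genes in the table, and these are called measured genes below.

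The genotype labels did not follow the titles: both untreated libraries carried the genotype of the floxed mice without Cre, and both LPS libraries that with LysM-cre. Groups follow the titles, and each group holds 1 library, so no result could be given without a library in doubt and no p-value could be computed. Library totals ran from 17610372 counts in the untreated WT-titled library to 23835940 in the untreated KO-titled one, and genes with at least 1 count numbered 19258 to 21953 per library. A gene with 0 counts may still have had up to 3 counts, or 0.108 to 0.184 CPM, in a library of this depth. Levels below are CPM after TMM normalization, always in the order WT-titled untreated, KO-titled untreated, WT-titled after LPS and KO-titled after LPS. A fold is the ratio of the 2 untreated CPM values with its exact 95% binomial interval (Clopper-Pearson), which covers counting error only and not the spread between mice or cultures. A gene was called higher or lower where its log2 ratio, taken with a prior count of 2, reached 2-fold and this interval excluded no change.

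Macrophage genes were abundant in every library. Adgre1, which encodes an adhesion receptor used to mark mouse macrophages, stood at 3044, 2669, 3698 and 4422 CPM, and Csf1r, the receptor for CSF1, at 1856, 1891, 1477 and 1146 CPM. All 20 macrophage identity genes were measured. The Y-linked genes Ddx3y, Eif2s3y, Kdm5d and Uty and the X-inactivation transcript Xist were present together in all 4 libraries, with Ddx3y at 31.0, 30.2, 33.6 and 30.8 CPM and Xist at 312, 270, 419 and 352 CPM. The labels do not say whether marrow of several mice was pooled.

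FBXW7 is the substrate-recognition subunit of an SCF ubiquitin ligase, which marks phosphorylated proteins such as cyclin E, MYC and JUN for degradation by the proteasome. Its action is on protein, so transcript levels of its substrates do not read it directly. Macrophages grown from marrow in CSF1 still divide for some days, while monocytes that have just differentiated carry chemokine receptors and surface proteins that mature macrophages lose.

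Of the 12326 measured genes, 392 (3.18%) were called higher and 255 (2.07%) lower in the KO-titled untreated library, 647 (5.25%) in all. Most measured genes lay close to each other in the 2 libraries: 10454 (84.8%) differed by less than 1.5-fold, and the median log2 ratio over all was 0.03. The counting interval alone, at any size of ratio, excluded no change for 6582 genes. A further 26 genes reached 2-fold but were not called, because their interval included no change. A difference of at least 4-fold was found for 85 genes higher and 14 lower. Higher genes made up 60.6% of the calls, but 48.4% (324 higher, 346 lower) when library totals replaced TMM, which shifted the median of all genes by -0.11 on the log2 scale. Among genes with a mean of at least 5 CPM untreated, Fos, at a log2 ratio of 1.00, was just inside the threshold. Zfas1, at 0.9998 before rounding to 1.00, was just outside it. Counts of called members in the lists below are to be set beside these shares, and in a list of 15 genes or fewer a count of 0 or 1 says little. On the lower side, with the same limit of 5 CPM, Pdlim4 was just inside the threshold and Nxpe5, at -0.997, just outside.

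**Figure D1:**
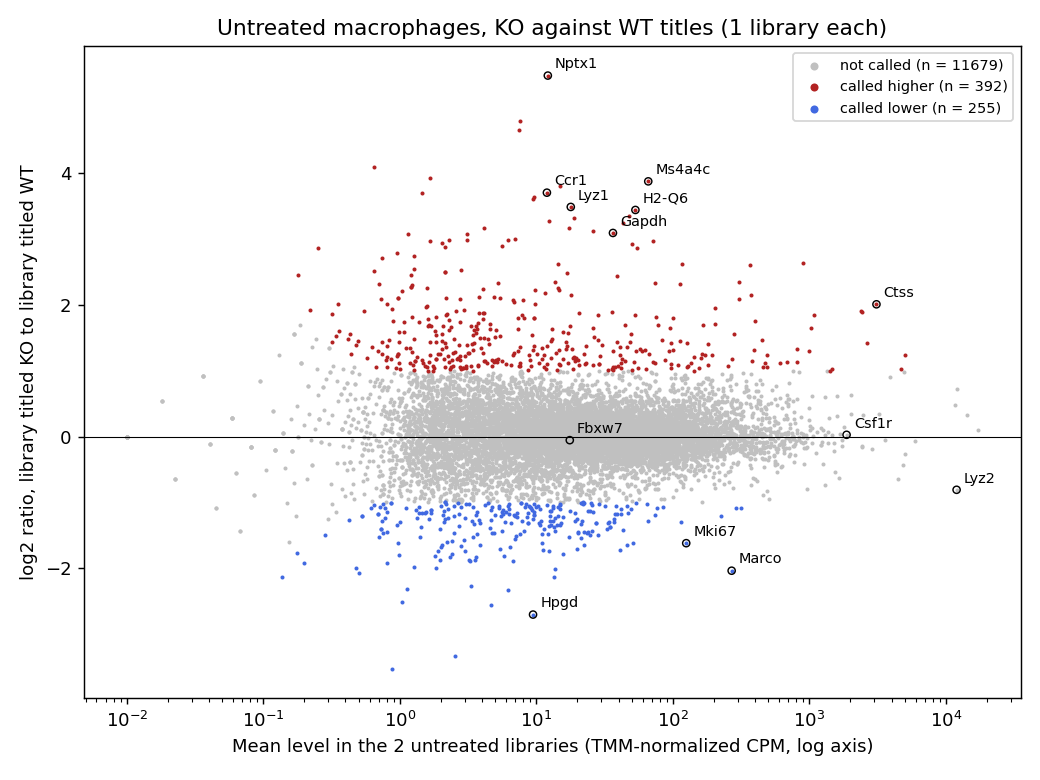
Each point is 1 of 12326 measured genes, with its mean level in the untreated libraries in CPM on a log horizontal axis and its log2 ratio of the KO-titled to the WT-titled library on the vertical axis. Red points are the 392 genes called higher and blue points the 255 called lower; Nptx1 is at the top at a log2 ratio of 5.48, Fbxw7 near 0 at -0.05.

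Genes of mitosis were lower as a group in the KO-titled untreated library. All 30 listed mitosis genes were measured, and 27 were called lower and 0 higher, beside 2.07% and 3.18% of all measured genes. Their median log2 ratio was -1.34, against 0.03 over all measured genes. Mki67, which encodes the proliferation antigen Ki-67, stood at 189, 61.5, 104 and 192 CPM, 3.08-fold lower in the KO-titled library (2.91 to 3.26). Hmmr, a spindle-associated hyaluronan receptor, stood at 24.3, 7.01, 4.13 and 14.4 CPM and was 3.47-fold lower (2.94 to 4.11). In both genes the untreated KO-titled library was the lower of its pair and the LPS KO-titled library the higher of its pair. Anln, which encodes the cytokinesis protein anillin, stood at 30.4, 9.29, 3.32 and 8.57 CPM and was 3.27-fold lower (2.83 to 3.79). Birc5, which encodes survivin of the chromosomal passenger complex, stood at 31.9, 10.9, 8.09 and 22.6 CPM, 2.92-fold lower (2.55 to 3.35). Mitosis genes that were not called included Cdk1, the mitotic kinase, at 59.8, 31.7, 20.3 and 49.6 CPM, and Cenpa, the centromeric histone H3 variant, at 72.5, 71.6, 15.3 and 22.7 CPM. Cenpa was level between the untreated libraries, with a ratio of 1.01-fold (0.947 to 1.08), unlike the 27 called genes. Fewer dividing cells and less of these transcripts per cell cannot be told apart in bulk RNA.

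Promoters of mitosis genes often carry a CCAAT box, bound by NF-Y, and a cell cycle genes homology region (CHR), the element through which the DREAM and B-MYB complexes act. The promoters of Cdc20, the activator of the anaphase-promoting complex, Kif11, a spindle motor, and Ube2c, the ubiquitin-conjugating enzyme of that complex, are printed to show both elements in genes that were lower together. They were chosen after their values were seen. Each is the stretch of 120 bases before the RefSeq start site (GRCm38.p6), in the direction of transcription, with the letters TTTGAA (CHR) and CCAAT, or their reverse complements TTCAAA and ATTGG, in capitals.
Cdc20, chr4:118437344-118437463, minus strand: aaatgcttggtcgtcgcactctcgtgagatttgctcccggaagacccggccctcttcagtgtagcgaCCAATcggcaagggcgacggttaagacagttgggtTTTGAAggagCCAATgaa
Kif11, chr19:37376262-37376381, plus strand: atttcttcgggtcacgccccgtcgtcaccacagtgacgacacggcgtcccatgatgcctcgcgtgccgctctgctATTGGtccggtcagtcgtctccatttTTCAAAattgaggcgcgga
Ube2c, chr2:164769809-164769928, plus strand: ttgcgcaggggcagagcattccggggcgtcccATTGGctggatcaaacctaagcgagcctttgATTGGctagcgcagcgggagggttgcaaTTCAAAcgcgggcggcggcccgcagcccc
Cdc20 stood at 34.7, 12.5, 3.26 and 9.61 CPM and was 2.78-fold lower in the KO-titled untreated library (2.44 to 3.16). Kif11 stood at 41.6, 14.7, 5.53 and 19.2 CPM and was 2.83-fold lower (2.51 to 3.19). Ube2c stood at 48.1, 18.2, 15.4 and 43.9 CPM and was 2.65-fold lower (2.38 to 2.95). In all 3, as in Hmmr, the KO-titled library was the lower of the untreated pair and the higher of the LPS pair. In the RefSeq windows of 250 bases before to 50 after the start, searched on both strands, 25 of the 30 mitosis genes had a window, and 17 of them (68%) held both motifs. Over all 27025 genes with a window the share with both was 7.97%, and over the 9165 measured genes with one it was 6.08%. The CHR and CCAAT letters can share at most 1 base, and a match describes letters, not bound protein. Among the mitosis genes called lower, 14 of the 22 with a window (63.6%) held both motifs. Cenpa, which did not differ, held both motifs too.

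DNA replication genes had a smaller median difference. Of 31 measured, 5 were called lower and 0 higher, and their median log2 ratio was -0.61. Chaf1a, a subunit of the histone chaperone that follows the replication fork, stood at 24.1, 11.0, 3.73 and 8.08 CPM and was 2.20-fold lower (1.91 to 2.54). Rrm2, the regulated subunit of ribonucleotide reductase, stood at 67.3, 31.4, 11.2 and 32.5 CPM, 2.14-fold lower (1.97 to 2.33). Uhrf1, which carries DNA methylation through replication, stood at 57.0, 26.7, 13.6 and 36.5 CPM. Pcna, the sliding clamp of DNA polymerases, was not called, at 342, 323, 736 and 837 CPM, and stayed within 1.06-fold between the untreated libraries. Among 15 measured cyclin D and CDK inhibitor genes, Cdkn2c, which encodes the inhibitor p18, was called lower with the KO title at 39.3, 15.8, 5.07 and 13.5 CPM. Cdkn1c, which encodes p57, was called higher from 0.907 to 3.51 CPM, 3.87-fold (2.37 to 6.61), and Cdkn1a, which encodes p21, was not called at 300 and 319 CPM.

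Classical and Q and T region MHC class I genes, which encode the molecules that show peptides to CD8 T cells, were higher in the KO-titled untreated library. Of 19 measured genes of MHC class I presentation, 7 were called higher and 0 lower, beside 3.18% and 2.07% of all measured genes, with a median log2 ratio of 0.56. H2-Q6 stood at 8.89, 97.5, 212 and 34.6 CPM, 11.0-fold higher (9.48 to 12.7), and H2-Q7 at 13.02, 95.7, 199 and 42.1 CPM, 7.35-fold higher (6.51 to 8.33). Both were at their lowest in the untreated WT-titled library. H2-K1 stood at 1446, 3881, 4917 and 2181 CPM and was 2.68-fold higher (2.65 to 2.72), and H2-D1 at 2992, 7067, 8397 and 4149 CPM was 2.36-fold higher (2.34 to 2.38). The others called were H2-Q4, H2-T23 and H2-T22, at 3.24-, 2.75- and 2.35-fold. B2m, the shared light chain, was not called at 2725, 5111, 6839 and 4319 CPM, 1.88-fold higher (1.86 to 1.89). These heavy chain genes are close copies of each other, so the split of reads among them is uncertain.

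A kappaB element next to an interferon-stimulated response element (ISRE) is a known feature of classical MHC class I promoters. The letters GGGATTCCC (kappaB) and GAANNGAAA (ISRE core), searched on both strands, stood together in the windows of H2-K1, H2-D1, H2-Q6 and H2-Q7, chosen after their values were seen, and 60 bases of each (GRCm38.p6, in the direction of transcription, both elements in capitals, the ISRE as its reverse complement) are printed to show how alike they are.
H2-K1, chr17:34000418-34000477, minus strand: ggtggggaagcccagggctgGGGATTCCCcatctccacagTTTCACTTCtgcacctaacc
H2-D1, chr17:35262904-35262963, plus strand: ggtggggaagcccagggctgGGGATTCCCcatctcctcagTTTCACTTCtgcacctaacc
H2-Q6, chr17:35424658-35424717, plus strand: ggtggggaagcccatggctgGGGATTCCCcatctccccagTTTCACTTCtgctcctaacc
H2-Q7, chr17:35439003-35439062, plus strand: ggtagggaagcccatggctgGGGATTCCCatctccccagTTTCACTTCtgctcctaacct
Of all 27025 genes with a window, 10 (0.0370%) held both, and these 4 were the only ones of the 10 among the genes called higher. With each motif 1 base longer, G before the kappaB letters and C after those of the ISRE, as first searched, 5 genes held both, the same 4 among the called. Because the 4 genes are copies, their shared letters count as 1 origin. The printed stretch of H2-D1 lies before its RefSeq start but inside the gene span of the deposited table. H2-T23 and H2-T22, called higher too, held neither set of letters, and H2-Q4 held the ISRE letters alone.

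Of 42 measured interferon-stimulated genes, 3 were called higher and 0 lower, beside 3.18% and 2.07% of all measured genes. Ratios were above 0 in 35 of the 42, and the median log2 ratio was 0.35. Irf7, the transcription factor that amplifies type I interferon, stood at 136, 606, 1252 and 800 CPM, 4.45-fold higher (4.28 to 4.63). Slfn1, a Schlafen family gene, stood at 5.08, 28.7, 158 and 67.4 CPM, 5.65-fold higher (4.63 to 6.95). Bst2, which encodes the virus-restricting protein tetherin, stood at 509, 1114, 1546 and 835 CPM, 2.19-fold higher (2.14 to 2.24). Ifitm3, another restriction factor, was just short of a call at 567 and 1117 CPM untreated. In MHC class II presentation, 1 of 12 measured genes was called: Ctss, the cathepsin that trims the invariant chain, at 1234, 4968, 5711 and 1488 CPM, 4.03-fold higher (3.98 to 4.08). Cd74, the invariant chain itself, was not called at 122, 166, 246 and 172 CPM.

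Fbxw7 and its ligase partners were level. Fbxw7 stood at 17.9, 17.2, 9.90 and 11.7 CPM, from 395 and 477 counts in the untreated libraries, and the KO-titled one was 1.04-fold lower (0.907 to 1.19). A count over the whole gene cannot show whether a floxed exon was lost, so it does not check the titles. None of the 14 measured ligase components was called, a count near the overall share, with log2 ratios from -0.25 to 0.23. Cul1, the scaffold, stood at 76.6 and 68.4 CPM untreated, and Skp1a, the adaptor, at 83.1 and 80.5 CPM. Of 32 measured transcripts of reported FBXW7 substrates, 2 were called lower and 0 higher, and the median log2 ratio was 0.09 (-0.02 with library totals). The called substrates were the mitotic kinases Plk1, at 29.7, 10.8, 2.62 and 7.77 CPM, and Aurka, at 34.7, 16.8, 5.36 and 10.8 CPM, both also in the mitosis list. Plk1 was 2.74-fold lower (2.39 to 3.15) and Aurka 2.07-fold lower (1.84 to 2.33). Substrate transcripts that were not called included Myc at 9.48 and 5.50 CPM, Ccne1, which encodes cyclin E1, at 11.6 and 9.18 CPM, and Notch1 at 53.0 and 54.2 CPM. Mcl1, which encodes a survival protein of the BCL2 family, was the most abundant, at 405 and 659 CPM, 1.63-fold higher (1.59 to 1.67) and not called. None of 18 measured Polycomb and H3K27 demethylase genes was called, likewise near that share, and their median log2 ratio was -0.01.

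The neighbouring lysozyme genes of mouse chromosome 10 differed in opposite directions. Lyz1, on chr10:117287797-117292868, stood at 2.86, 32.9, 33.1 and 2.63 CPM, from 63, 910, 569 and 43 counts, and was 11.5-fold higher in the KO-titled untreated library (8.92 to 15.1). Lyz2, on chr10:117277331-117282321 (both in the mm10 table), stood at 15253, 8711, 9917 and 18238 CPM and was 1.75-fold lower (1.74 to 1.76), short of a call. The untreated KO-titled and LPS WT-titled libraries were thus the high ones for Lyz1 and the low ones for Lyz2. LysM-cre sits in the Lyz2 locus, and its part in these levels was not tested. The KO-titled library was the lower of the untreated pair for Lyz2 and the higher of the LPS pair. The stretches before their RefSeq starts are printed to show how close the genes are. That of Lyz2 lies only partly inside the gene span of the deposited table. Bases that differ are in capitals (GRCm38.p6, minus strand, in the direction of transcription).
Lyz1, chr10:117292869-117293018, minus strand: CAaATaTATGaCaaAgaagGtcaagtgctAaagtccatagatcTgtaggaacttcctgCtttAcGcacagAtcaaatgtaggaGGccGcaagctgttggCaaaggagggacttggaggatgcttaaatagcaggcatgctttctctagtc
Lyz2, chr10:117282273-117282422, minus strand: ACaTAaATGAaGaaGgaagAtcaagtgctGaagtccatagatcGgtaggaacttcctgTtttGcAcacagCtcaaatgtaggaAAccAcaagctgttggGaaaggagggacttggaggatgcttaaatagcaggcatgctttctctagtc
Compared position by position, without an alignment that allows gaps, 129 of these 150 bases (86%) were identical. The transcripts are near copies as well, so some Lyz1 counts could be reads of the far more abundant Lyz2.

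The widest differences were in genes that were nearly silent in the WT-titled library. Nptx1, which encodes the secreted neuronal pentraxin 1, had 10 and 659 counts in the untreated libraries, or 0.454, 23.8, 1.69 and 0.122 CPM over the 4, and was 52.5-fold higher (28.4 to 110). Cd300ld3, a member of the CD300 family of myeloid receptors whose genes are close copies, stood at 0.454, 14.8, 1.69 and 1.35 CPM, 32.5-fold higher (17.5 to 68.3). Dio2, the deiodinase that activates thyroid hormone, stood at 0.499, 14.5, 32.3 and 4.10 CPM, 29.1-fold higher (16.1 to 58.8). Nptx1 and Cd300ld3 were at 1.69 CPM or below in every library but the untreated KO-titled one, whereas Dio2 was at its highest in the LPS WT-titled library. Itgb7, the integrin beta 7 chain, stood at 1.90, 27.8, 13.8 and 1.53 CPM and was 14.6-fold higher (10.7 to 20.4). Hmga2, a chromatin protein of fetal and stem cells, stood at 1.36, 17.5, 11.8 and 1.28 CPM, 12.9-fold higher (8.89 to 19.3). Pdpn, which encodes the CLEC-2 ligand podoplanin, stood at 8.48, 87.1, 259 and 35.0 CPM, 10.3-fold higher (8.84 to 11.98). These 3 genes were high in the untreated KO-titled and the LPS WT-titled libraries. The same held for the orphan receptor gene Gprc5b, at 1.36, 17.9, 13.9 and 2.75 CPM, and for Gng4, a G protein gamma subunit gene, at 3.40, 31.2, 23.9 and 4.10 CPM. Slfn4, a Schlafen gene with close neighbours in the family, stood at 8.07, 77.5, 425 and 129 CPM, higher in both LPS libraries than in either untreated one. Of the 15 highest genes, Cd300ld3 alone was not called lower with the KO title after LPS.

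The 15 lowest genes differed by less, between 3.15- and 6.70-fold. Hpgd, the enzyme that inactivates prostaglandins, stood at 16.5, 2.46, 1.28 and 11.3 CPM and was 6.70-fold lower (5.16 to 8.81). Ptgs1, which encodes cyclooxygenase 1 at the start of prostaglandin synthesis, stood at 22.2, 4.99, 1.69 and 5.87 CPM, 4.44-fold lower (3.67 to 5.41). Marco, a scavenger receptor for bacteria, was the most abundant of the 15 at 434, 106, 190 and 1211 CPM, 4.11-fold lower (3.94 to 4.28). In each of these the KO-titled library was the low one untreated and the high one after LPS. Cd209f, a C-type lectin gene, stood at 10.7, 2.82, 5.88 and 25.6 CPM, Calb2, which encodes the calcium-binding protein calretinin, at 70.6, 22.4, 33.7 and 157 CPM, and Adam23, a member of the ADAM family, at 34.0, 10.8, 7.05 and 44.6 CPM. They were 3.78-, 3.15- and 3.16-fold lower in the untreated KO-titled library and the highest of the 4 in the LPS KO-titled one. F13a1, the coagulation factor XIII A chain of resident macrophages and monocytes, stood at 17.1, 5.13, 9.08 and 22.2 CPM. Asb2, a ubiquitin ligase subunit gene, stood at 63.4, 19.1, 6.52 and 25.2 CPM, and Abca9, a lipid transporter family gene, at 19.1, 5.68, 5.59 and 12.4 CPM. Ednrb, an endothelin receptor gene, was lower with the KO title untreated and level after LPS, at 8.30, 2.49, 32.4 and 36.5 CPM. Srp54b, a copy of the signal recognition particle gene Srp54 and so uncertain, stood at 10.3, 1.99, 15.1 and 11.9 CPM. Ankle1, a nuclease gene, at 9.12, 2.53, 0.408 and 0.918 CPM, and Rtn4rl1, a Nogo receptor homolog, at 9.89, 3.04, 0.0582 and 0.306 CPM, had nearly no counts after LPS.

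**Figure D2:**
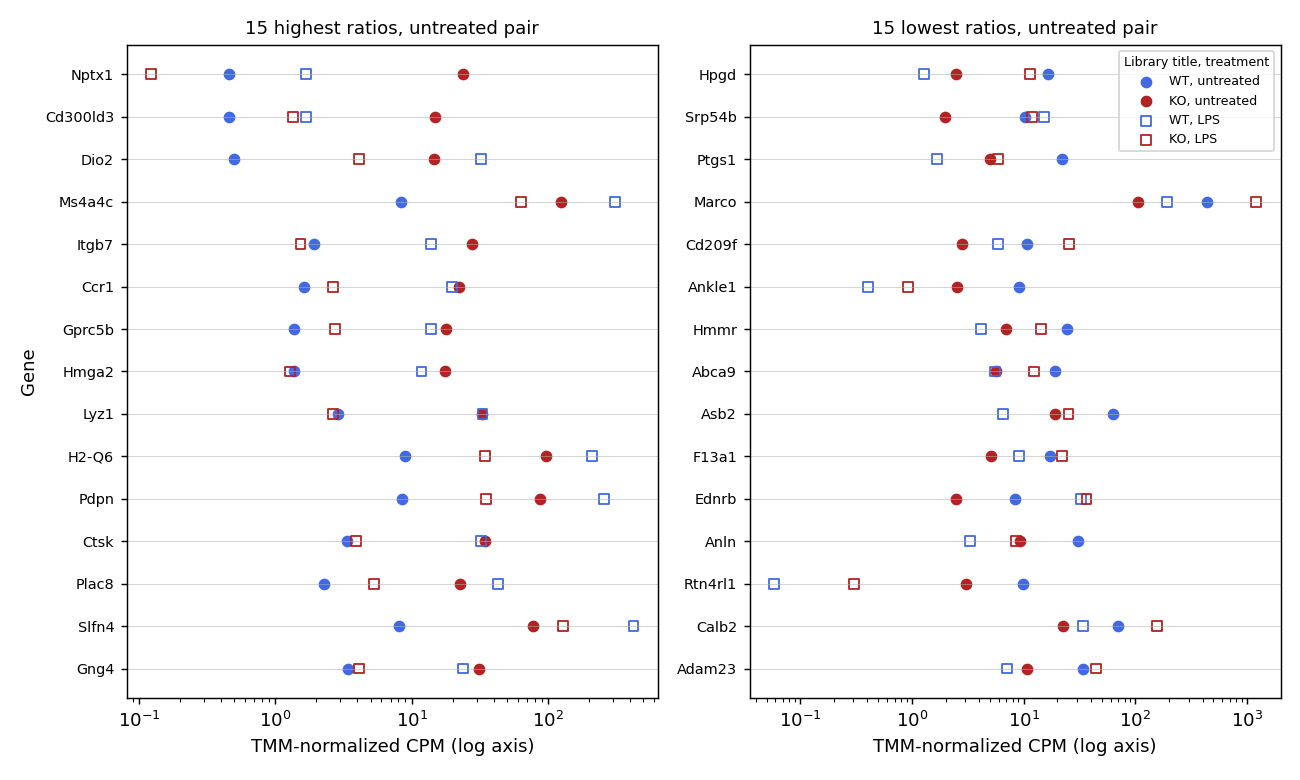
CPM on a log axis in the 4 libraries for the 15 genes with the highest and the 15 with the lowest log2 ratio in the untreated pair; filled circles are untreated and open squares LPS libraries, blue WT-titled and red KO-titled. In Lyz1 the filled red circle (32.9) and the open blue square (33.1) coincide, and Marco runs from 106 to 1211 CPM.

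Genes that mark the monocyte state were split. Of 19 measured, 9 were called higher and 4 lower in the KO-titled library, and the median log2 ratio was 0.82. Ms4a4c, a membrane protein gene of monocytes with close family copies, stood at 8.35, 124, 312 and 63.8 CPM, 14.8-fold higher (12.8 to 17.3). Plac8, found in monocytes and granulocyte precursors, stood at 2.27, 22.7, 42.9 and 5.32 CPM, 10.0-fold higher (7.49 to 13.6). Ly6c2, whose product marks classical monocytes, had 13 and 155 counts untreated, at 0.590, 5.60, 3.61 and 0.428 CPM, 9.51-fold higher (5.40 to 18.3). Ly6a, which encodes the interferon-inducible surface protein Sca-1, was the more abundant at 103, 629, 728 and 57.3 CPM, 6.12-fold higher (5.86 to 6.40). The 4 genes called lower were F13a1, Treml4, Cx3cr1 and Fn1. Treml4, a receptor gene of nonclassical monocytes and some macrophages, stood at 3.63, 1.16, 0.408 and 1.53 CPM, Fn1, which encodes fibronectin, at 8.44, 4.09, 2.91 and 9.55 CPM, and Cx3cr1, the fractalkine receptor of nonclassical monocytes, at 15.1, 6.04, 0.175 and 0.122 CPM. The list therefore did not differ in 1 direction: Ly6c2 was higher and Cx3cr1 and Treml4 lower, but Nr4a1, a factor nonclassical monocytes need, was higher, while Itgal, an integrin gene of the same list, was not called at 526 and 414 CPM.

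Chemokine receptors had the highest median of the lists with at least 8 measured genes, a log2 ratio of 1.80, with 5 of 9 measured genes called higher and 1 lower. Ccr1, which binds inflammatory CC chemokines, stood at 1.63, 22.3, 19.7 and 2.63 CPM, 13.6-fold higher (9.74 to 19.7). Ccr2, the CCL2 receptor that brings monocytes out of the marrow, stood at 4.94, 23.9, 11.4 and 1.10 CPM, 4.83-fold higher (3.94 to 5.97). Both, and Ccr3 at 3.36, 12.3, 33.5 and 6.42 CPM, were low in the untreated WT-titled and LPS KO-titled libraries. Cxcr4, the receptor that holds cells in the marrow, differed in the untreated pair alone, at 44.8, 156, 8.85 and 10.4 CPM, 3.50-fold higher (3.26 to 3.75). Cmklr1, the chemerin receptor, was not called at 50.3 and 53.1 CPM untreated.

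**Figure D3:**
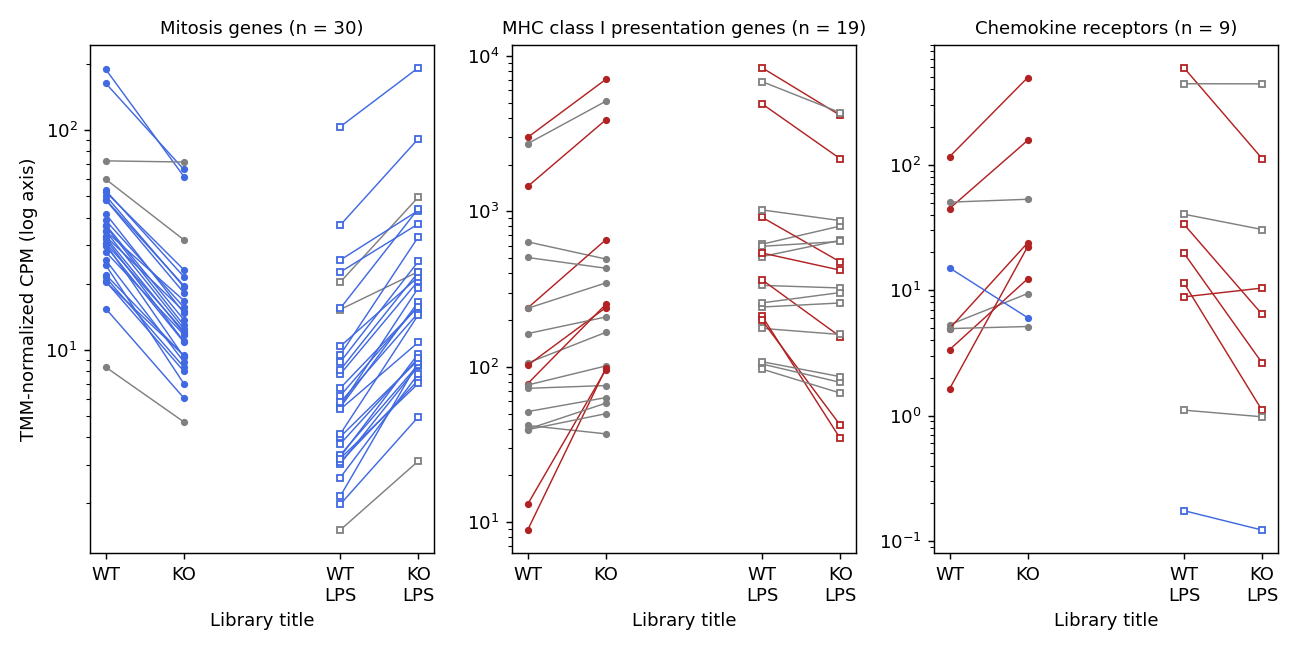
CPM on log axes in the 4 libraries for each measured mitosis gene (30), MHC class I presentation gene (19) and chemokine receptor (9), with lines joining the WT-titled and KO-titled library of each treatment. Blue lines are genes called lower and red lines genes called higher in the untreated pair (27 blue mitosis genes, 7 red MHC genes); grey lines are not called, and squares are LPS libraries.

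Among the ligands, 3 of 9 measured CC chemokines were called higher and 0 lower. Ccl8, another monocyte attractant, stood at 32.8, 201, 239 and 47.1 CPM, 6.14-fold higher (5.68 to 6.65). Ccl7, a monocyte attractant that binds CCR2, stood at 4.22, 14.9, 695 and 344 CPM, 3.54-fold higher (2.82 to 4.48). Ccl5, an attractant of T cells and monocytes, stood at 3.45, 7.70, 1112 and 1182 CPM, 2.23-fold higher (1.71 to 2.94). Ccl2, the main CCR2 ligand, was not called at 18.1, 27.6, 436 and 312 CPM, 1.53-fold higher (1.35 to 1.73), nor were Ccl9 at 323 and 523 CPM and Ccl6 at 264 and 427 CPM. Of 10 measured CXC chemokines, 3 were called higher and 1 lower. The neutrophil attractants Cxcl1 and Cxcl3 rested on few untreated counts in the WT-titled library, 4 and 6, against 59 and 63 in the KO-titled one. Cxcl1 stood at 0.181, 2.13, 74.5 and 9.24 CPM and Cxcl3 at 0.272, 2.28, 21.2 and 3.06 CPM. Cxcl16, a membrane-bound scavenger receptor and chemokine, was 2.12-fold higher (2.03 to 2.22) at 117 and 248 CPM. Cxcl9, an interferon gamma target, had 6 and 0 counts untreated and passed the filter through the LPS libraries. With the untreated KO-titled library set to 3 counts it was 2.51-fold lower, a value that leaves out counting error.

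Of 19 measured inflammatory cytokine and mediator genes, 2 were called higher and 0 lower, with log2 ratios from -1.43 to 3.71. Of the 22 genes listed, 6 had no more than 3 counts in each untreated library, and those of them that were measured passed the filter through the LPS libraries, so their untreated levels were not resolved. Inhba, which encodes the activin A subunit, had 3 and 76 counts, a ratio of 20.2-fold (6.65 to 100.1), and stood at 0.136, 2.75, 68.0 and 4.59 CPM. Il1rn, the interleukin 1 receptor antagonist, stood at 32.6, 81.8, 1028 and 498 CPM, 2.51-fold higher (2.31 to 2.73). Tnf was not called at 21.8, 20.5, 770 and 857 CPM. In signalling, 1 of 24 NF-kB components, Traf1, and 1 of 29 Toll-like receptor pathway genes, Cd14, were called, both higher, which is near the 5.25% called over all measured genes. Traf1, a TNF receptor adaptor, stood at 6.62, 17.4, 342 and 144 CPM, and Cd14, the LPS co-receptor, at 291, 688, 3366 and 1575 CPM, 2.36-fold higher (2.29 to 2.43). Nfkb1 stood at 113 and 99.0 CPM untreated. The inflammasome list had 1 of 17 called, Mefv, which encodes pyrin, at 21.2, 57.4, 406 and 140 CPM.

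Immediate early genes respond within minutes to signals. Of 26 measured, 8 were called higher and 0 lower, with a median log2 ratio of 0.56. Nr4a2, an orphan nuclear receptor, stood at 3.22, 11.5, 9.84 and 3.67 CPM, 3.56-fold higher (2.74 to 4.67), and Nr4a1 at 11.2, 25.8, 24.5 and 7.10 CPM, 2.29-fold higher (1.98 to 2.66). Fosb, an AP-1 subunit gene, stood at 0.998, 3.62, 19.5 and 4.04 CPM, 3.62-fold higher (2.27 to 6.04). Ier2, a nuclear protein gene induced by serum, stood at 13.2, 31.8, 116 and 64.2 CPM, 2.40-fold higher (2.10 to 2.75). The 2 most abundant genes of the list, the stress factor Atf3 at 220 and 314 CPM and the zinc finger factor Klf6 at 192 and 260 CPM untreated, were not called.

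Lysosomal cathepsins were among the most abundant genes that differed. Of 31 measured lysosome and MiT/TFE genes, 4 were called higher and 0 lower, with a median log2 ratio of 0.31. Ctsk, the collagen-cleaving cathepsin of osteoclasts, stood at 3.36, 34.3, 32.5 and 3.92 CPM, 10.2-fold higher (8.06 to 13.1). Ctsl, a broad lysosomal protease, stood at 1013, 3798, 2041 and 849 CPM, 3.75-fold higher (3.70 to 3.81), and Ctss is given above. Gpnmb, a target of the MiT/TFE factors, stood at 3086, 6291, 7991 and 3645 CPM, 2.04-fold higher (2.02 to 2.06). Ctsb, at 9124 and 15010 CPM, and Psap, the saposin precursor, at 9708 and 13536 CPM untreated, were higher by 1.65- and 1.39-fold and not called. Of the other 3 measured osteoclast markers none was called. Atp6v0d2, a proton pump subunit gene, stood at 15.6 and 27.2 CPM untreated, 1.75-fold higher (1.53 to 1.99), Acp5, which encodes the tartrate-resistant phosphatase, at 43.2 and 37.5 CPM, and Nfatc1, the osteoclast regulator, at 50.2 and 51.0 CPM. The part of such cells in the cathepsin values was not tested.

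Matrix and protease genes held 10 called higher and 2 lower of 26 measured, with a median log2 ratio of 0.21. Serpinb2, a plasminogen activator inhibitor, had 13 and 103 counts, at 0.590, 3.72, 323 and 169 CPM, 6.32-fold higher (3.54 to 12.3). Mmp8, the collagenase of neutrophils, stood at 6.58, 29.4, 19.0 and 3.92 CPM, 4.46-fold higher (3.74 to 5.36). Adamts1, a proteoglycan-cleaving protease gene, had 4 and 34 counts and Timp1, a metalloproteinase inhibitor, 7 and 45 counts in the untreated libraries. Spp1, which encodes osteopontin, was the most abundant of the called genes, named after its values were seen, at 1033, 3851, 5073 and 1343 CPM, 3.73-fold higher (3.67 to 3.78). The genes called lower were Fn1 and Col4a1, a basement membrane collagen gene with 31 and 14 counts. Adam17, the TNF-releasing protease, was level at 227 and 193 CPM.

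In lipid handling, 4 of 20 measured LXR and PPAR target genes were called higher and 0 lower, with a median log2 ratio of 0.16. Fabp4, a fatty acid-binding protein gene, stood at 21.0, 68.4, 105 and 50.6 CPM, 3.25-fold higher (2.94 to 3.61). Plin2, the lipid droplet coat, stood at 575, 1421, 1178 and 702 CPM, 2.47-fold higher (2.42 to 2.52). Fabp5 stood at 428 and 937 CPM and Pltp, a phospholipid transfer protein gene, at 958 and 1948 CPM untreated. Apoe, the most abundant measured gene, was level at 16554, 17793, 20616 and 18340 CPM. Of 29 sterol and fatty acid synthesis genes, Scd1, a fatty acid desaturase gene, was called higher from 29 to 88 counts and Me1, the malic enzyme, lower from 249 to 110 counts.

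Surface receptors differed in both directions. Of 27 Fc, TREM and lectin receptor genes, 6 were called higher and 1, Treml4, lower. Cd300lf, an inhibitory myeloid receptor gene, stood at 44.7, 123, 47.7 and 8.02 CPM, 2.75-fold higher (2.56 to 2.96), and Fcgr1, the high-affinity IgG receptor, at 227, 564, 826 and 536 CPM, 2.48-fold higher (2.40 to 2.56). Siglec1, the sialic acid-binding receptor of the macrophage identity list, stood at 183, 617, 784 and 152 CPM, 3.37-fold higher (3.25 to 3.49). That list had 5 of 20 called higher and 0 lower, with a median log2 ratio of 0.23. Of 14 scavenger receptors, Cxcl16 was called higher and Marco and Cd163 lower, while Cd36 was level at 779 and 836 CPM. Cd163, the haemoglobin scavenger receptor, stood at 5.53, 2.17, 1.05 and 2.20 CPM. Of 17 complement genes, 2 were called higher, C1ra and Cfb, and 2 lower, among them Itgax. Itgax, which encodes CD11c, stood at 5.12, 1.34, 2.10 and 14.9 CPM, 3.83-fold lower (2.62 to 5.71). The complement genes C1qb, at 1159 and 1268 CPM, and C3ar1, at 1258 and 1527 CPM, were not called. Of 26 purinergic and lipid mediator receptor genes, 3 were called higher and 4 lower. Adora2b, an adenosine receptor gene, was 4.22-fold higher (3.18 to 5.69) at 2.63 and 11.1 CPM. P2ry12 and P2ry13, ADP receptors of resident macrophages, were 2.81-fold (2.11 to 3.77) and 2.36-fold (1.88 to 2.98) lower.

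Arg1, the arginase of alternatively activated macrophages, was 8.36-fold higher (5.70 to 12.7), at 1.32, 11.0, 0.582 and 0.122 CPM. The list as a whole was divided, with Arg1 and Socs2 called higher and Cd163 lower of 10 measured genes, and Mrc1, the mannose receptor, not called at 230 and 184 CPM. Saa3, an acute phase gene of macrophages, stood at 249, 1554, 3209 and 780 CPM, 6.25-fold higher (6.08 to 6.43). Odc1, the enzyme of polyamine synthesis that follows arginase, stood at 166, 377, 1040 and 500 CPM, 2.26-fold higher (2.18 to 2.35), the 1 gene of 26 in the ribosome biogenesis and MYC target list that was called. The arginine, nitric oxide and itaconate list held no other call among its 14 measured genes than Arg1 and Odc1. Of 13 NADPH oxidase and antimicrobial genes, Lyz1 and Saa3 were called higher and none lower.

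Genes of glycolysis and of the oxidative and folding stress responses had negative medians. Calls ran in both directions for glycolysis and folding stress, and lower only for the NRF2 targets of oxidative stress. Of 30 glycolysis and hypoxia-response genes, 3 were called higher and 1 lower, beside 3.18% and 2.07% of all measured genes, and the median log2 ratio was -0.29. Vegfa, the angiogenic growth factor, stood at 60.05, 164, 72.3 and 25.4 CPM, 2.73-fold higher (2.57 to 2.90), and Slc16a3, a lactate exporter gene, at 96.7, 222, 165 and 51.8 CPM, 2.30-fold higher (2.19 to 2.42). Pkm, the pyruvate kinase, was not called at 2017 and 1299 CPM, 1.55-fold lower (1.53 to 1.58). Gapdh stood at 7.57, 65.3, 3.67 and 3.55 CPM, 8.62-fold higher (7.35 to 10.2), at levels far below the other glycolytic genes named. Gapdh has many pseudogene copies, and no source used here says how reads with several matches were counted, so this value is uncertain. Of 21 NRF2 target genes, 3 were called lower and 0 higher, with a median log2 ratio of -0.42. Gsta3, a glutathione transferase gene, stood at 5.62, 1.48, 0.757 and 3.92 CPM, 3.79-fold lower (2.65 to 5.54), and Nqo1, a quinone reductase gene, at 12.4, 5.79, 1.69 and 2.88 CPM, 2.15-fold lower (1.76 to 2.63); the other called gene was that of catalase. Hmox1, which encodes haem oxygenase 1, was not called at 625 and 351 CPM, 1.78-fold lower (1.74 to 1.83). Of 26 chaperone and unfolded protein response genes, 3 were called higher and 2 lower. Hspa1a and Hspa1b, near-identical HSP70 genes, were 4.94-fold (3.35 to 7.53) and 4.31-fold (3.23 to 5.84) higher. Ddit3, which encodes the stress factor CHOP, was higher at 27.4, 61.1, 49.4 and 13.6 CPM, while Herpud1, a protein of endoplasmic reticulum degradation, was lower at 62.7, 23.4, 19.1 and 62.5 CPM.

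None of 32 cytosolic ribosomal protein genes, 12 mitochondrially encoded genes, 15 circadian clock genes or 15 BCL2 family genes was called, with median log2 ratios of -0.00, -0.18, 0.08 and 0.19 in that order. With 5.25% of all measured genes called, a count of 0 in lists of this size is near the overall share. Ribosomal protein genes lay between -0.28 and 0.26. Of 16 housekeeping genes, Gapdh alone was called, and Actb stood at 5401 and 3452 CPM, 1.56-fold lower (1.55 to 1.58). Single genes were called in several further lists. Of 15 Notch pathway genes 1 was called, Dtx4, a ubiquitin ligase of the pathway, higher at 22.9, 59.1, 27.4 and 16.7 CPM. Of 20 genes of CSF1, CSF2 and growth factor signalling 2 were called higher, Kit and Vegfa, while Csf2rb, the shared chain of the CSF2 receptor, was at 424 and 540 CPM. Of 8 measured canonical histone genes 1 was called higher, Hist1h2bj, with 21 and 75 counts. Of 24 integrin and adhesion genes, Itgb7 and Itga1 were called higher and Itgax lower.

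**Figure D4:**
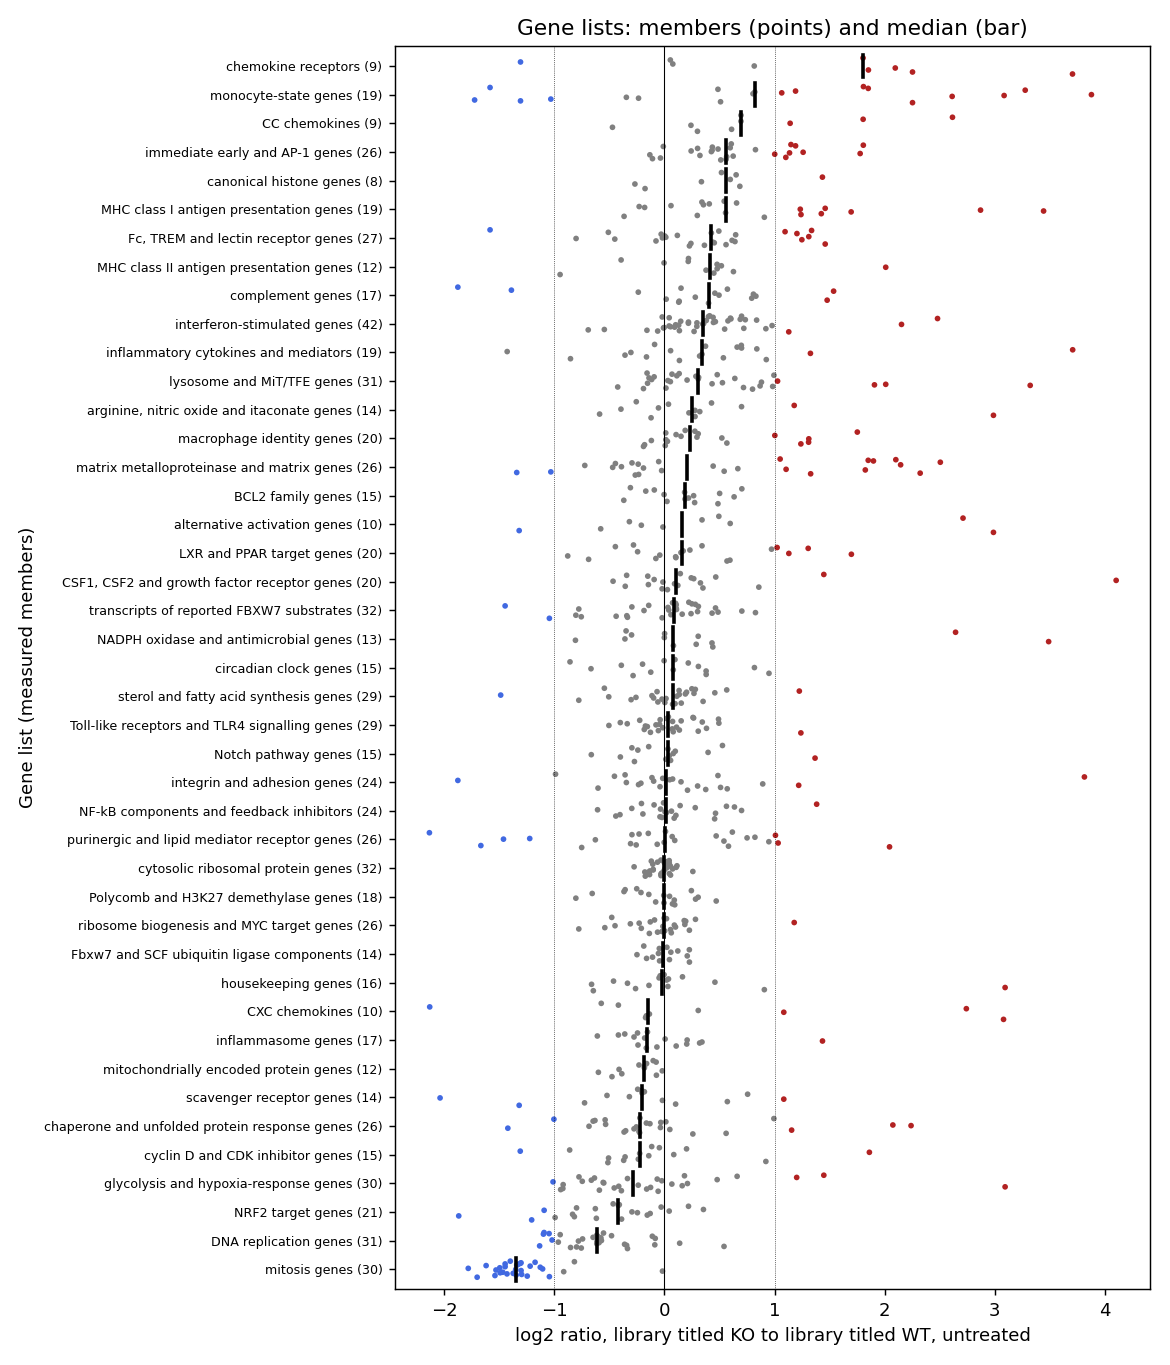
Log2 ratio of the KO-titled to the WT-titled untreated library for the measured members (points) of each list with at least 8 of them, with the median as a black bar and dotted lines at 2-fold. Mitosis genes lie at the low end with a median of -1.34 and chemokine receptors at the high end with 1.80; red and blue points are called genes.

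Several markers of other cells were absent or nearly so, while others, such as Ighm and Bst2, were not low. Which cells made them was not tested. The defining T cell gene Cd3e had 0, 2, 0 and 0 counts, and the neutrophil gene Ly6g had 0, 1, 0 and 0. The summed erythroid markers stood at 0.181 and 0.398 CPM and the fibroblast markers at 4.58 and 4.74 CPM in the untreated libraries. Basophil and mast cell markers summed over 9 genes to 2.00, 9.04, 11.6 and 5.51 CPM. Prss34, a basophil protease gene, had 13, 103, 45 and 3 counts and Mcpt8, another, 5, 38, 17 and 1 counts. Gata2 of this list was level untreated, at 0.726, 0.759, 3.32 and 1.65 CPM. Kit, the stem cell factor receptor in the same list, had 0 and 36 counts untreated and was level after LPS, at 2.74 and 2.81 CPM. With the untreated WT-titled library set to 3 counts it was 9.57-fold higher, a value that leaves out counting error. Of this list Tpsb2 and Mcpt4 were at 0 in all libraries, and its part in the other differences was not tested. The summed B cell markers were 109, 42.8, 48.2 and 169 CPM, nearly all Ighm (76.6, 24.8, 37.6 and 140 CPM) and Cd79b (31.4, 17.0, 9.72 and 27.4 CPM), while Pax5 had 0, 2, 0 and 0 counts. Neutrophil markers summed to 137 and 135 CPM untreated, mostly Csf3r at 125 and 97.4 CPM, and S100a8 was at 1.95 CPM in both. In the same list Mmp8 was called higher at 6.58 and 29.4 CPM, Lcn2 stood at 2.18 and 2.96 CPM, and Prtn3 had 5 and 22 counts. Of 8 progenitor markers, Cd34 was at 5.76 and 3.00 CPM and Flt3 at 0.136 and 0.325 CPM untreated. NK cell markers summed to 0.454 and 0.217 CPM, and the T cell sum of 68.6 and 71.5 CPM was mostly Cd4 and Cd28. The dendritic cell sum of 519 and 1122 CPM was mostly Bst2, given above, and Cd209a was at 0 in all libraries. Eosinophil markers summed to 11.7 and 15.8 CPM, with Epx, Ear1 and Ear6 at 0 in all libraries. The 2 measured eosinophil markers were called in opposite directions, Ccr3, given above, higher and Siglecf lower. Siglecf stood at 8.16, 2.96, 4.54 and 4.41 CPM, from 180 and 82 counts untreated. Megakaryocyte markers summed to 116 and 87.4 CPM, nearly all the chemokine gene Pf4, and osteoclast markers to 113 and 150.4 CPM.

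After LPS the title contrast ran the other way for most called genes. The LPS pair, which shares no library with the untreated pair, had 414 genes (3.36%) called higher and 587 (4.76%) called lower with the KO title, 1001 (8.12%) in all. Of the 392 genes higher in the untreated pair, 220 (56.1%) were called lower after LPS, which is 37.5% of the 587, and 2 were called higher. Of the 255 genes lower untreated, 147 (57.6%) were called higher after LPS, which is 35.5% of the 414, and 4 were called lower. Together 367 genes were called in opposite directions and 6 in the same direction. The genes higher untreated, with a median log2 ratio of 1.40 there, had a median of -1.11 in the LPS pair, and the genes lower untreated, with a median of -1.26, had 1.14. Across the 12326 genes, which are not independent replicates, Pearson's r of the log2 ratios was -0.61. Mitosis genes had medians of -1.34 and 1.32 in the untreated and LPS pairs, and 23 of the 27 called lower untreated were called higher after LPS. MHC class I genes had medians of 0.56 and -0.37 and chemokine receptors 1.80 and -0.40. With 1 library a group, the difference between the pairs was not tested, and genotype, mouse, culture and handling of a library cannot be told apart. An exchange of the titles within 1 pair, which would turn the direction of every value given for that pair, was not tested either.

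**Figure D5:**
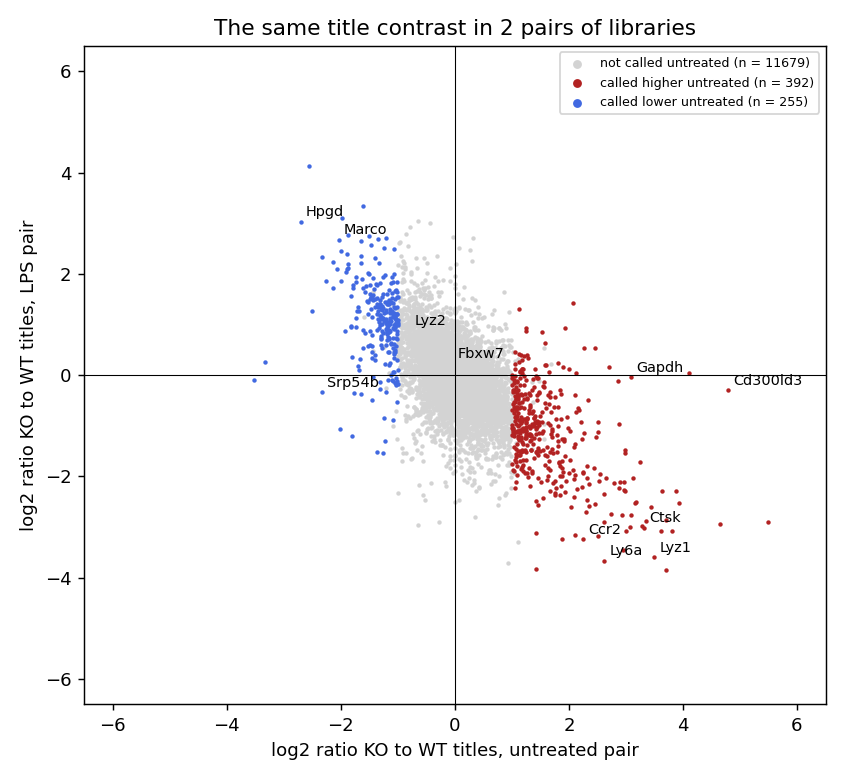
Log2 ratio of the KO-titled to the WT-titled library in the untreated pair (horizontal) and in the LPS pair (vertical) for the 12326 measured genes. Red points, the 392 genes called higher untreated, lie mostly below 0 on the vertical axis, and blue points, the 255 called lower, mostly above it; Gapdh, Srp54b and Cd300ld3 are among those near 0 after LPS.

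The authors' deposited table gave an adjusted p-value for 20889 genes in the untreated comparison, with 136 genes higher and 36 lower in KO at an adjusted p under 0.05. Of these in the authors' deposited table, 154 were measured by the rule used here, and all 154 were called in the same direction. Both used the same 2 libraries, and the authors' log2 folds differed from the log2 of the folds here by a median of -2.66e-06. The match is therefore no independent support for the calls. No source used here says how those p-values were obtained from 1 library a group.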

How the data were processed

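Messenger RNA was selected from 3 µg of RNA per sample and read from both ends (125 or 150 bp) on an Illumina instrument, per the labels' protocols. Per the submitters' processing notes, HISAT2 2.0.5 aligned the reads to mm10. Raw read counts per gene, FPKM values, and the authors' log2 fold changes, p-values and adjusted p-values were deposited, per the file headers. Not given in the sources used are the program and strand setting behind the counts, the annotation and the authors' test. Overlapping genes and close copies are therefore uncertain. Another 8 columns with values of samples stayed unused.

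Counts were normalized over the 4 libraries with edgeR 4.0.16 (TMM factors 1.25, 1.16, 0.820 and 0.840 in the order of the report) in R 4.3.3. Ratios, intervals and figures were computed in Python 3.11.15 with SciPy 1.17.1, NumPy 2.4.6, pandas 2.3.3 and, for plots, matplotlib 3.10.9. No test of groups was run, because each group holds 1 library. The size rule was tested on simulated counts that held counting error only, so that test does not cover spread between mice or cultures. Named were Fbxw7, Lyz1, Lyz2, Ccl2 and Ccl7, the 15 highest and 15 lowest called protein-coding genes with a mean of at least 5 CPM untreated and no provisional symbol, and for each of 45 gene lists and 12 marker lists up to 4 called members per direction and up to 2 uncalled ones, with all members of the lysozyme, ligase, substrate, CC chemokine and sex-linked lists allowed. Other genes named, the promoters and the motifs were chosen after their values were seen. The members and lists were chosen with earlier results of these data known. Promoter sequences are RefSeq's (GRCm38.p6), from 250 bases before to 50 after a start. Alternatives were other normalizations (among them DESeq2 1.42.0 size factors), filters, fold thresholds, prior counts, and the authors' FPKM with a pseudocount of 1. A few members of the lists are not reported here, though the counts include them.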

Additional observations from a re-analysis of the deposited data

Results flagged for a closer look

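In the untreated and the LPS pair, 367 genes were called in opposite directions between the titles, and each group holds 1 library, so the difference was not tested. Of the 34 genes named for their size or always named, 26 were among them, 15 higher and 11 lower with the KO title untreated. Those higher untreated had these log2 ratios of the KO-titled to the WT-titled library after LPS: Nptx1 -2.90, Dio2 -2.94, Ms4a4c -2.29, Itgb7 -3.08, Ccr1 -2.85, Gprc5b -2.29, Hmga2 -3.09, Lyz1 -3.60, H2-Q6 -2.61, Pdpn -2.88, Ctsk -3.01, Plac8 -2.98, Slfn4 -1.72, Gng4 -2.51 and Ccl7 -1.01. Those lower untreated had these log2 ratios after LPS: Hpgd 3.03, Ptgs1 1.73, Marco 2.67, Cd209f 2.10, Hmmr 1.78, Abca9 1.13, Asb2 1.93, F13a1 1.27, Anln 1.34, Calb2 2.22 and Adam23 2.64.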

How the results depend on the processing

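No paired analysis was possible because each group holds 1 library, and no library could be left out. Of the 647 calls, 576 kept their direction and size with library totals, 634 with DESeq2 size factors and 229 with the authors' FPKM, and 0 reversed under these. Without a filter 649 genes were higher and 521 lower; with a mean of at least 5 CPM, 239 and 146. At 1.5-fold, 984 were higher, 740 lower and 951 opposite after LPS; at 4-fold, 85, 14 and 55; with the authors' FPKM plus 1, 159, 70 and 124. The FPKM pseudocount shrinks ratios of low genes. The remaining alternatives stayed within 1.5 times the counts in the report. Of 136 alternative log2 ratios of the 34 genes, 32 moved, 29 of them with FPKM, and 0 reversed; of 204 alternative list medians 18 moved. Medians near 0 changed sign in some lists, as the FBXW7 substrates did with library totals. Depth limits genes of a few counts, such as Cxcl9, and counting intervals hold no spread between mice.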
